A study of Homo sapiens with 4 samples.

Results

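DNA repair genes were compared between parental and resistant cells of 92.1, an established human line of uveal melanoma, a tumour of the pigment cells of the eye. The genes were found by symbol: all those named FANC, XRCC, ERCC, MLH, POLQ, RAD with 2 digits, or MSH or PARP with a digit, together with a list of named repair genes such as BRCA1, ATM and APEX1. This gave 78 of the 11650 genes that have a value, and 72 of them averaged 1 FPKM or more across the 4 libraries and were tested among 10271 genes. FPKM counts the fragments of a gene relative to the length of its transcript and the size of the library, so levels of different genes are set side by side on a per-length scale.

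The study has 2 libraries of parental 92.1 cells, called control in the titles, and 2 of resistant 92.1 cells. No treatment, time or agent of resistance is named in the labels, and no genetic change is given for either group beyond the words parental and resistant cells. The cell line entry climbs from 92.1 to 95.1 across the 4 samples, while every title reads 92.1, and the titles were followed. Whether the libraries within a group come from different cultures is unstated, so every p-value measures the spread between these libraries only, which may be technical. The sum of FPKM per library was 282602 to 293481 and the true depth is unknown. The labelled cell type was checked against 7 pigment cell markers. TYRP1 made up most of their summed level, which was 2580 and 2300 FPKM in parental and 2990 and 2260 FPKM in resistant libraries. DCT was the 1 marker under 1 FPKM in both resistant libraries (0.486 and 0.517, against 4.88 and 5.46 in parental libraries). SOX10 (91.8 and 73.3 against 54.9 and 54.3 FPKM) and MITF (35.3 and 37.4 against 9.64 and 31.8 FPKM) were also lower in both. TYRP1 was higher in both (1490 and 1484 against 2143 and 1514 FPKM). On average 5 of the 7 markers were lower in resistant libraries (71.4%, against 58.6% of all genes tested).

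DNA repair is divided among pathways that each handle one kind of lesion. Base excision repair replaces single damaged bases, nucleotide excision repair cuts out bulky adducts, mismatch repair corrects replication errors, and the Fanconi anaemia pathway unhooks crosslinks between strands. Double-strand breaks are either rejoined end to end or copied from the sister chromatid by homologous recombination, under the control of the ATM and ATR kinases. In many cell types transcripts of the recombination and Fanconi genes are most abundant in cells that are replicating their DNA.

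No DNA repair gene differed between resistant and parental cells after adjustment over all genes. Of the 72 tested genes, 0 passed an adjusted p of 0.05 in limma, where 0.0584% of all genes tested did (6 of 10271), and the lowest adjusted p was 0.145. At an unadjusted limma p under 0.05, 1 repair gene was higher in resistant cells (BRCA2), against 6.06% of all genes, and 4 were lower, XRCC6, PARP6 and FANCG among them, against 10.2% of all genes. These counts are near or below the background of the whole transcriptome. The median log2 fold change was -0.14 over the repair genes and -0.08 over all genes tested, and 52 of the 72 repair genes lay below 0 (72.2%), as did 58.6% of all genes. The 2 resistant values lay above both parental values for 5 genes (6.94%, against 19.1% of all genes), namely BRCA2, RAD50, BARD1, RAD51D and MSH5. They lay below both parental values for 26 genes (36.1%, against 31.8% of all genes).

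**Figure D1:**
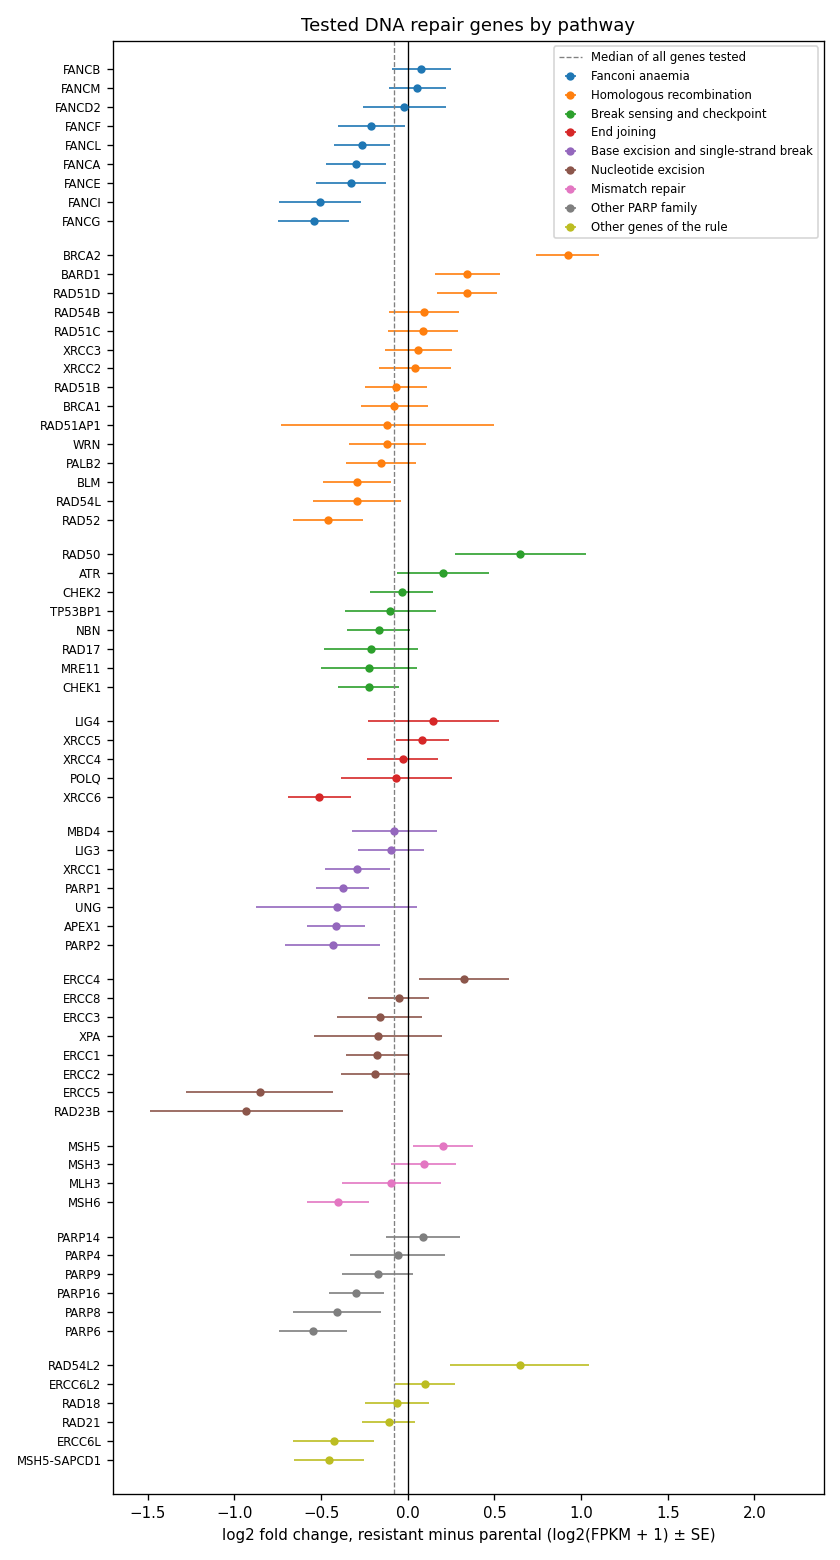
Log2 fold change (resistant minus parental, on the log2(FPKM + 1) scale) of 68 of the 72 tested DNA repair genes, grouped and coloured by pathway. Points are limma estimates, bars are 1 SE, and the dashed line is the median of all genes tested (-0.08); of those drawn, BRCA2 has the highest value (0.92) and RAD23B the lowest (-0.93, with a wide error).

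The counts at an unadjusted p depended on single libraries, for repair genes as for all genes. Without resistant replicate 1, 7 repair genes were higher and 19 lower (9.72% and 26.4%, against 10.7% and 24.9% of all genes). Without resistant replicate 2, 4 were higher and 8 lower (5.48% and 11%, against 9.83% and 11.5%). Without parental replicate 1 these were 1 and 0 (3.62% and 3.14% of all genes), and without parental replicate 2 they were 2 and 2 (3.39% and 4.41% of all genes). With the libraries scaled by median of ratios, 10 repair genes (13.9%) were higher and 23 (31.9%) lower without overlap, against 25.3% and 26.4% of all genes, so the split between higher and lower genes depended on the scaling. In each of these alternatives 0 repair genes passed the adjusted threshold.

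The promoters shown here are those of the genes at an unadjusted p under 0.05 that have an entry in the RefSeq table (GRCh38.p14), chosen after the values were seen, and of the tested genes that carry an E2F site. Each is the 250 bases before the most upstream annotated start, 5′ to 3′ on the gene's strand. E2F factors drive transcription of replication genes. Capitals mark a match to an E2F site (TTTCCCGC, TTTCGCGC, TTTGCCGC or TTTGGCGC, on either strand), the cell cycle homology region TTTGAA or the interferon response element GAAANNGAA. The BRCA2 window (chr13:32315258-32315507, plus strand), the XRCC6 window (chr22:41621045-41621294, plus strand), the PARP6 window (chr15:72272555-72272804, minus strand) and the FANCG window (chr9:35079943-35080192, minus strand) hold none of them. The FANCA window (chr16:89816648-89816897, minus strand) and the MSH3 window (chr5:80654402-80654651, plus strand) hold E2F sites, those of MSH3 being 2 that overlap.
BRCA2: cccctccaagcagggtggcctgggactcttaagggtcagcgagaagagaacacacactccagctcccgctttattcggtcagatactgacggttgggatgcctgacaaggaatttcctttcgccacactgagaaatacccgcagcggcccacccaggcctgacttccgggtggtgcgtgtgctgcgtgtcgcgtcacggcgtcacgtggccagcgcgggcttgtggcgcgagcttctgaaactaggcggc
XRCC6: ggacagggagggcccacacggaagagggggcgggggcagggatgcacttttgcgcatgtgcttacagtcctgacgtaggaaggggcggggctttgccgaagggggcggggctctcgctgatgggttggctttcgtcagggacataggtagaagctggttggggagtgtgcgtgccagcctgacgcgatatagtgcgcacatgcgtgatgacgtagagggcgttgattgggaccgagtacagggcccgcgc
PARP6: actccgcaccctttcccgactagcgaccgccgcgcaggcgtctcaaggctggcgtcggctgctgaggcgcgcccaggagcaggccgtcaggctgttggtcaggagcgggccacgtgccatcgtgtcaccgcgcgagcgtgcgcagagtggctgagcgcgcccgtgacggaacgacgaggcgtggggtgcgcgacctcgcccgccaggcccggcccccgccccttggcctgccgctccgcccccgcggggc
FANCG: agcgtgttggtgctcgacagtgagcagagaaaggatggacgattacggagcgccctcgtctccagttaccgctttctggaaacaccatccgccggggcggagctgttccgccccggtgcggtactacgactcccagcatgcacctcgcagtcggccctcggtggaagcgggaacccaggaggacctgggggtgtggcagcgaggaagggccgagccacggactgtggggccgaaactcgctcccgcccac
FANCA: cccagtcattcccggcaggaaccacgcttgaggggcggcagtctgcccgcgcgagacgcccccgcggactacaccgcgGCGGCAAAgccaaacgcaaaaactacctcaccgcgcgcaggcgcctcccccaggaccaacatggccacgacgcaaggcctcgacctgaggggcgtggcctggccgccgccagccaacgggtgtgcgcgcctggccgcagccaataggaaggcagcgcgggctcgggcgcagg
MSH3: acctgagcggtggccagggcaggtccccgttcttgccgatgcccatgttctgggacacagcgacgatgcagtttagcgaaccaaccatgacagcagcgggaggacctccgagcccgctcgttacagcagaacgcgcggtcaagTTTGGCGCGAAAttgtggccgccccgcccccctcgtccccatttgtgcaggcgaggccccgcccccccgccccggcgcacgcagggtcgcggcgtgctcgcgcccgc

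Of the 78 repair genes, 66 had a promoter in that table. An E2F site was found in 3 of them (4.55%), FANCA, FANCC and MSH3, against 2.78% of 27305 promoters of the same length. The cell cycle homology region was found in 8 (12.1%, against 13.6% of all) and the interferon response element in 7 (10.6%, against 7.07%), PARP14 and BRCA1 among them. The genes with an E2F site did not share a direction: the log2 fold change was -0.30 for FANCA and 0.09 for MSH3, and FANCC was not tested. The BRCA2 and XRCC6 windows, with opposite signs of change, both lack these letters. A match or its absence describes these letters in this window only.

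Homologous recombination held the repair gene with the lowest p, BRCA2. This gene, whose protein prepares resected DNA for strand exchange, stood at 0.802 and 0.875 FPKM in parental cells and at 2.85 and 2.15 FPKM in resistant cells. Both resistant libraries lay well above both parental ones, and the group means differed 2.98-fold. The log2 fold change was 0.92 ± 0.18 SE (95% interval 0.46 to 1.38), with a limma adjusted p of 0.145 over all genes, so BRCA2 did not pass. Across the alternatives its adjusted p ran from 0.0755 to 0.559, and with a pseudocount of 0.1 its log2 fold change was 1.46. Both parental values are under 1 FPKM, so BRCA2 entered the test only through its resistant level. In GENCODE release 29 on GRCh38 it is a protein-coding gene on chromosome 13 from 32315474 to 32400266.

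PALB2 did not share the difference of BRCA2. This gene, whose protein joins BRCA2 to BRCA1, stood at 7.81 and 8.58 FPKM in parental and 8.24 and 6.36 FPKM in resistant libraries. The ratio of BRCA2 to PALB2 was therefore 0.103 and 0.102 in parental cells against 0.346 and 0.338 in resistant cells. This ratio was chosen after the values were seen. BRCA2 was the scarcer transcript of the pair in all 4 libraries.

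BARD1 and RAD51D were the other recombination genes whose resistant values both exceeded the parental ones. BARD1, the partner of BRCA1 in a ubiquitin ligase, stood at 2.47 and 2.66 against 3.16 and 3.92 FPKM (log2 fold change 0.34 ± 0.19 SE, limma adjusted p = 0.42). BRCA1 overlapped between groups, at 4.25 and 5.24 against 4.14 and 4.72 FPKM. RAD51D, a subunit of a complex that assists strand exchange, stood at 1.34 and 1.35 against 1.74 and 2.22 FPKM (0.34 ± 0.17 SE, limma adjusted p = 0.392). RAD51D shares exons on its own strand with a readthrough gene, so its level is uncertain. Of its relatives, RAD51B, RAD51C, XRCC2 and XRCC3 overlapped between groups, with log2 fold changes from -0.07 to 0.09.

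RAD52 and BLM lay below both parental values in both resistant libraries. RAD52, an annealing protein, stood at 2.20 and 2.12 against 1.63 and 1.01 FPKM (log2 fold change -0.46 ± 0.20 SE, limma adjusted p = 0.335). The BLM helicase, which dissolves recombination intermediates, stood at 4.54 and 5.41 against 4.23 and 3.53 FPKM. RAD54L, a motor protein of strand exchange, overlapped between groups (5.38 and 6.11 against 5.72 and 3.49 FPKM), as did RAD54B and the WRN helicase. RAD51AP1, a cofactor of strand exchange and the recombination gene with the highest mean, was the least settled. It stood at 13.8 and 13.5 FPKM in parental libraries, at 5.91 FPKM in resistant replicate 1 and at 25.4 FPKM in its fellow replicate 2. A pseudogene named after RAD51AP1 exists in release 29. Over the 16 recombination genes the median log2 fold change was -0.07, with 7 above and 9 below 0.

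Of 9 tested Fanconi genes, 0 passed the adjusted test. In this small group 7 lay below 0 (77.8%, against 58.6% of all genes), and 6 were lower without overlap between groups (66.7%, against 31.8% of all genes). FANCG, a member of the core ubiquitin ligase complex, stood at 9.55 and 7.88 FPKM in parental and 5.08 and 6.28 FPKM in resistant libraries, a 1.53-fold lower mean. Its log2 fold change was -0.54 ± 0.20 SE (95% interval -1.06 to -0.03, limma adjusted p = 0.295). FANCI, which the core complex modifies together with FANCD2, stood at 9.70 and 9.09 against 7.79 and 5.09 FPKM (-0.51 ± 0.24 SE, limma adjusted p = 0.358). FANCD2 did not follow it, at 4.50 and 5.61 against 5.99 and 4.07 FPKM. The ratio of FANCI to FANCD2, chosen after the values were seen, was 2.16 and 1.62 in parental cells against 1.30 and 1.25 in resistant cells.

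The core subunits FANCA, FANCE, FANCF and FANCL also lay below both parental values in both resistant libraries. FANCA stood at 2.18 and 2.21 against 1.79 and 1.43 FPKM, and FANCE at 6.76 and 6.23 against 5.67 and 4.34 FPKM. FANCL, the catalytic subunit of the ligase, was the most abundant of the group at 41.0 and 43.0 against 37.7 and 32.1 FPKM. None of these reached a limma adjusted p below 0.44. FANCB and the translocase FANCM overlapped between groups, with log2 fold changes of 0.08 and 0.06. The median of the group was -0.26, and -0.10 without resistant replicate 2. FANCA, FANCD2, FANCF, FANCI and FANCL share exons with genes on the opposite strand. The use of strand in counting was not given in the sources used here. A pseudogene named after FANCD2 is also annotated.

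Break sensing and checkpoint genes showed no common direction. RAD50, the coiled-coil subunit of the complex that tethers broken ends, stood at 7.11 and 7.83 FPKM in parental libraries, at 8.06 FPKM in resistant replicate 1 and at 18.4 FPKM in resistant replicate 2. Its other subunits stayed near or below the parental level: MRE11, the nuclease, at 4.07 and 4.43 against 4.72 and 2.53 FPKM, and NBN at 10.0 and 10.5 against 9.83 and 8.28 FPKM. The difference in RAD50 thus came almost wholly from 1 library (log2 fold change 0.65 ± 0.38 SE, 0.10 without resistant replicate 2, limma adjusted p = 0.447 with all 4).

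ATR, the kinase that answers to single-stranded DNA, stood at 2.39 and 2.85 against 4.18 and 2.33 FPKM, and its target kinase CHEK1 at 3.83 and 4.22 against 3.39 and 3.20 FPKM. CHEK1 was lower in both resistant libraries and ATR was not. CHEK1 shares exons on its own strand with STT3A, so its level is uncertain. STT3A, named after its values were seen, stood at 19.9 and 19.2 against 12.3 and 11.7 FPKM. CHEK2, the kinase downstream of ATM, stood at 5.39 and 6.09 against 5.72 and 5.43 FPKM. The chromatin adaptor TP53BP1 and the clamp loader RAD17 overlapped between groups, with log2 fold changes of -0.10 and -0.21. ATM itself was too low to be tested: it stood at 0.259 and 0.428 FPKM in parental and 0.786 and 0.467 FPKM in resistant libraries, higher in both resistant ones. Of the 8 tested genes, 2 were above and 6 below 0 (median -0.13, and 0.11 without resistant replicate 2).

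In end joining, the heterodimer that caps broken ends was unequally represented. XRCC6, which encodes its Ku70 subunit, stood at 108 and 110.0 FPKM in parental and 87.6 and 66.4 FPKM in resistant libraries. It is the most abundant transcript of all 78 repair genes, and both resistant values lay below both parental ones. The mean was 1.42-fold lower (log2 fold change -0.51 ± 0.18 SE, 95% interval -0.97 to -0.05, limma adjusted p = 0.282), and XRCC6 did not pass. XRCC5, which encodes the Ku80 subunit, overlapped between groups at 47.2 and 50.5 against 54.1 and 49.7 FPKM (0.08 ± 0.15 SE). The ratio of XRCC6 to XRCC5, chosen after the values were seen, was 2.29 and 2.18 in parental cells against 1.62 and 1.34 in resistant cells. Release 29 holds 5 pseudogenes named after XRCC6, so its level is uncertain. XRCC6 lies on chromosome 22 from 41621119 to 41664048.

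The ligation step did not separate the groups. XRCC4, the ligase scaffold, stood at 9.44 and 12.0 against 11.3 and 9.59 FPKM. The ligase LIG4 stood at 4.59 and 6.05 against 8.97 and 3.85 FPKM, with the resistant libraries on either side of the parental ones. POLQ, the polymerase of microhomology-mediated joining, did the same at 2.44 and 2.98 against 3.75 and 1.63 FPKM. The median of the 5 genes was -0.03, and -0.37 without resistant replicate 1.

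All 7 tested genes of base excision and single-strand break repair lay below 0, where 58.6% of all genes did, and the median log2 fold change was -0.38. Of these, 4 were lower without overlap between groups (57.1%, against 31.8% of all genes). PARP1, which detects strand breaks and marks them with poly(ADP-ribose), stood at 59.1 and 53.5 FPKM in parental and 42.3 and 43.9 FPKM in resistant libraries. The log2 fold change was -0.38 ± 0.15 SE (95% interval -0.76 to 0.01, limma adjusted p = 0.313). APEX1, the endonuclease that cuts at abasic sites, stood at 34.5 and 39.3 against 28.9 and 26.0 FPKM (-0.41 ± 0.17 SE, limma adjusted p = 0.315). Both genes were lower in both resistant libraries, and for both the resistant replicates lay close together. Release 29 holds 2 pseudogenes named after PARP1, so the level of that gene is uncertain. No gene of the group passed over all genes or at an unadjusted p.

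The scaffold XRCC1 stood at 7.63 and 7.12 against 6.40 and 5.34 FPKM, and PARP2, the second break sensor, at 6.81 and 7.44 against 6.61 and 3.74 FPKM. PARP2 was lower mainly in resistant replicate 2. UNG, the uracil glycosylase, was split in the parental group, at 23.0 and 8.42 FPKM, and stood at 8.85 and 12.1 FPKM in resistant libraries. LIG3, the ligase bound by XRCC1, and the glycosylase MBD4 overlapped between groups, with log2 fold changes of -0.10 and -0.08. OGG1, which removes oxidised guanine, was below the filter and overlapped (0.86 and 0.694 against 0.70 and 0.955 FPKM). The group's median ran from -0.35 (resistant replicate 1 left out) to -0.25 (parental replicate 1 left out), and median-of-ratios scaling gave -0.27.

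**Figure D2:**
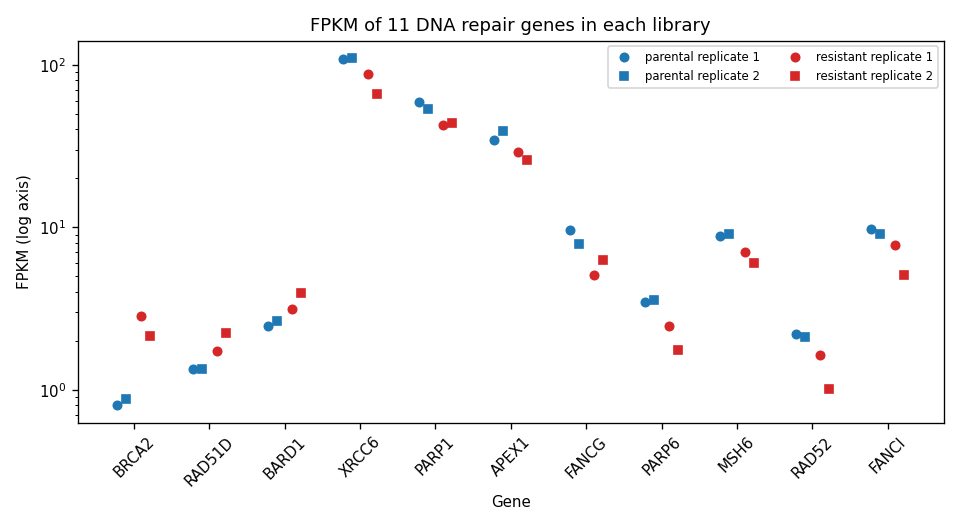
FPKM (log axis) of 11 DNA repair genes in each of the 4 libraries, parental in blue and resistant in red, with circles for replicate 1 and squares for replicate 2. BRCA2, RAD51D and BARD1 sit higher in both resistant libraries, and the other 8 genes, from XRCC6, the most abundant, to RAD52, the least, sit lower in both. The 11 genes do not represent the whole set: all are without overlap between groups. Of the 72 tested repair genes, 31 were without overlap (43.1%, against 51% of all genes tested).

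In nucleotide excision repair, most genes lay below 0 and 0 passed over all genes. RAD23B, which encodes a damage-recognition partner of XPC, stood at 46.7 and 34.1 against 37.5 and 11.0 FPKM. Only resistant replicate 2 of RAD23B lay below the parental range, so its log2 fold change of -0.93 ± 0.56 SE was -0.09 without that library. Release 29 holds 3 pseudogenes named after RAD23B.

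ERCC5, the endonuclease that cuts on the 3′ side of the lesion, appeared lower in resistant replicate 1, where a gene that shares its exons was higher. ERCC5 stood at 10.1 and 10.0 FPKM in parental libraries, 2.96 FPKM in resistant replicate 1 but 8.46 FPKM in replicate 2 (log2 fold change -0.85 ± 0.42 SE, limma adjusted p = 0.377). The readthrough gene BIVM-ERCC5 was listed at 0 and stood at 1.46 FPKM in parental libraries, stood at 7.52 FPKM in resistant replicate 1 and was listed at 0 in resistant replicate 2. The sum of the 2 was 10.1 and 11.5 FPKM in parental and 10.5 and 8.46 FPKM in resistant libraries, so resistant replicate 1 lay within the parental range on the sum. BIVM-ERCC5 and the sum were chosen after the values were seen, and FPKM of transcripts of different length add only approximately.

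Of the other excision genes reported here, ERCC4 in resistant replicate 2 and XPA in both resistant libraries lay well outside the parental range. ERCC4, the partner nuclease on the 5′ side, stood at 2.43 and 2.66 against 2.56 and 4.51 FPKM, and its partner ERCC1 at 12.1 and 12.8 against 11.8 and 9.96 FPKM. The damage verifier XPA was split, at 11.6 and 12.3 against 6.92 and 15.7 FPKM. The helicases ERCC2 and ERCC3 and the transcription-coupled factor ERCC8 had log2 fold changes of -0.19, -0.16 and -0.05 with overlap. ERCC6, which acts with ERCC8 on stalled polymerases, was below the filter at 0.451 and 0.688 against 0.738 and 0.715 FPKM. Of 9 tested genes, 8 lay below 0 (median -0.18, and -0.07 without resistant replicate 2).

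Mismatch repair genes were divided. MSH6, which recognises single mispairs, stood at 8.78 and 9.11 FPKM in parental and 7.03 and 6.03 FPKM in resistant libraries (log2 fold change -0.40 ± 0.18 SE, limma adjusted p = 0.347). MSH3, which recognises longer loops, stood at 3.84 and 4.50 against 4.28 and 4.73 FPKM. The ratio of MSH6 to MSH3, chosen after the values were seen, was 2.28 and 2.03 in parental cells against 1.64 and 1.28 in resistant cells. Not every partner ratio computed separated the groups. Those of PARP1 to XRCC1 (7.75 and 7.51 against 6.61 and 8.23) and RAD50 to MRE11 (1.75 and 1.77 against 1.71 and 7.26) overlapped. Those of BARD1 to BRCA1 and RAD50 to NBN did not overlap.

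MLH3, a MutL subunit, was split between the resistant libraries, at 2.78 and 2.74 against 1.70 and 3.58 FPKM. MSH5, a meiotic MutS relative, stood at 2.78 and 2.49 against 3.14 and 3.21 FPKM, and the readthrough gene MSH5-SAPCD1, which shares its exons, at 1.87 and 2.75 against 1.46 and 1.34 FPKM. These went in opposite directions, and their sum was 4.65 and 5.25 FPKM in parental cells against 4.60 and 4.55 FPKM in resistant cells. Over the 6 mismatch repair genes, which leave out MSH5-SAPCD1, the median was -0.02, with 3 above and 3 below 0.

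The remaining PARP genes encode enzymes that mostly attach single ADP-ribose units and act largely outside strand break repair. PARP6 stood at 3.45 and 3.55 FPKM in parental and 2.46 and 1.75 FPKM in resistant libraries, a 1.67-fold lower mean without overlap (log2 fold change -0.55 ± 0.20 SE, 95% interval -1.05 to -0.05, limma adjusted p = 0.285). PARP16, an enzyme of the endoplasmic reticulum, stood at 1.56 and 1.28 against 0.929 and 1.00 FPKM, and PARP8 at 2.15 and 2.29 against 2.03 and 0.941 FPKM. All of these were lower in both resistant libraries. PARP6 shares exons on its own strand with a gene that has no value, so its level is uncertain. PARP4, the vault-associated member and the most abundant of the group, stood at 11.9 and 12.3 against 15.1 and 8.84 FPKM.

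PARP9 and PARP14, which are known to respond to interferon, overlapped between groups. PARP14 stood at 3.46 and 3.45 against 4.47 and 3.11 FPKM, and PARP9 at 1.75 and 1.48 against 1.66 and 1.02 FPKM. DTX3L, the ubiquitin ligase partner of PARP9 and named after its values were seen, stood at 3.98 and 4.36 against 3.80 and 2.53 FPKM. Of 14 tested interferon-stimulated genes, 0 passed over all genes, 7 lay above and 7 below 0, and the median was -0.01. The median of the 6 tested PARP genes was -0.23, and -0.03 without resistant replicate 2. PARP11 (0.843 and 0.796 against 0.72 and 0.172 FPKM) and PARP10 (0.496 and 0.375 against 0.52 and 0.559 FPKM) were below the filter and did not overlap between groups.

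A few genes that the symbols bring in act elsewhere. RAD21, a subunit of the cohesin ring, was abundant and overlapped between groups at 47.6 and 52.7 against 47.7 and 44.9 FPKM. ERCC6L, a helicase of mitotic chromosome bridges, was lower in both resistant libraries at 4.72 and 5.33 against 4.32 and 2.77 FPKM (log2 fold change -0.43 ± 0.24 SE). RAD54L2 was split in the parental group, at 0.194 and 1.73 FPKM, against 2.01 and 1.65 FPKM. The lesion bypass ligase RAD18 and ERCC6L2 had log2 fold changes of -0.06 and 0.10. FANCC, the last of the 6 genes below the filter, stood at 1.05 and 1.02 against 1.04 and 0.724 FPKM. MSH4, PARP3, PARP12, PARP15, RAD21L1 and RAD51AP2 had no value and were not analysed here.

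The resistant libraries differed from each other more than the parental ones did. The values of the 2 resistant libraries were at least 1.5-fold apart for 24 of 72 repair genes (33.3%, against 28.2% of all genes tested), and those of the parental libraries for 3 (4.17%, against 10.6%). A 2-fold gap was seen for 10 genes in the resistant group (13.9%, against 9.89% of all genes tested), among them RAD51AP1, RAD23B, ERCC5, LIG4, POLQ, RAD50, XPA, PARP8 and MLH3. In the parental group it was seen for UNG and RAD54L2 (2.78%, against 5.05% of all genes tested). The 10 genes were divided evenly, with 5 higher in resistant replicate 1 and 5 higher in resistant replicate 2. Against the parental mean, 33 of the 72 repair genes were lower in both resistant libraries, 11 were higher in both, and 28 had opposite signs. The same shares were not computed over all genes, so these counts have no background.

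**Figure D3:**
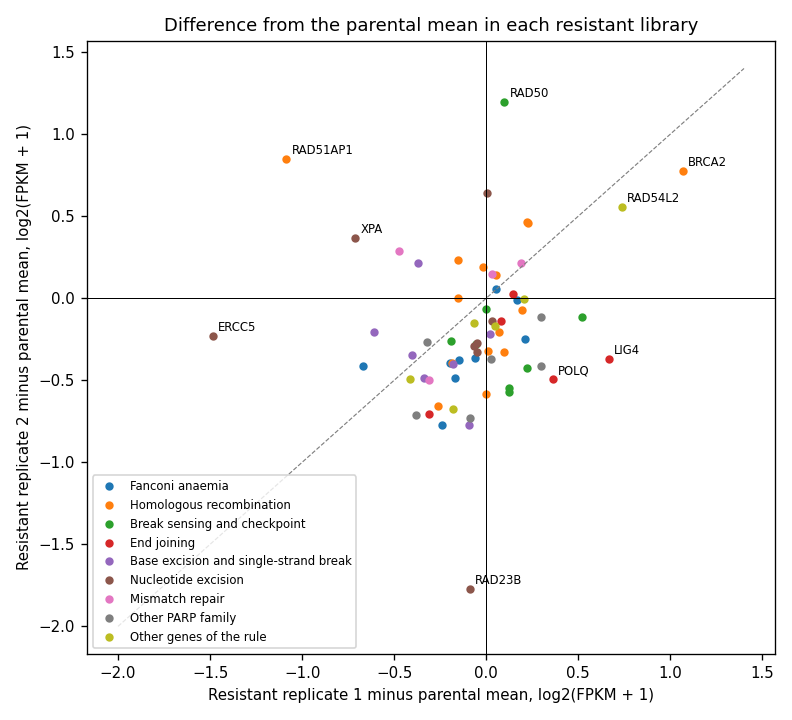
Difference from the parental mean on the log2(FPKM + 1) scale in resistant replicate 1 (horizontal) and resistant replicate 2 (vertical) for 68 of the 72 tested DNA repair genes, coloured by pathway, with the dashed line marking equal differences. BRCA2 lies high in both, RAD50 and RAD51AP1 are high in replicate 2 alone, and RAD23B is low in replicate 2 alone.

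The pathway medians moved with the library as well. Against the parental mean, all repair genes had a median difference of -0.05 in resistant replicate 1 and -0.27 in its fellow replicate 2, and all genes tested had -0.01 and -0.16. Resistant replicate 2 therefore read lower across the transcriptome, and its part in the pathway medians was not tested. Base excision genes were the group with near-equal medians below the parental level in both resistant libraries (-0.34 and -0.35). Fanconi genes stood at -0.15 and -0.38. End joining (0.15 and -0.37) and break sensing (0.11 and -0.27) changed sign between the libraries, and recombination genes stayed near 0 (0.00 and -0.04).

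**Figure D4:**
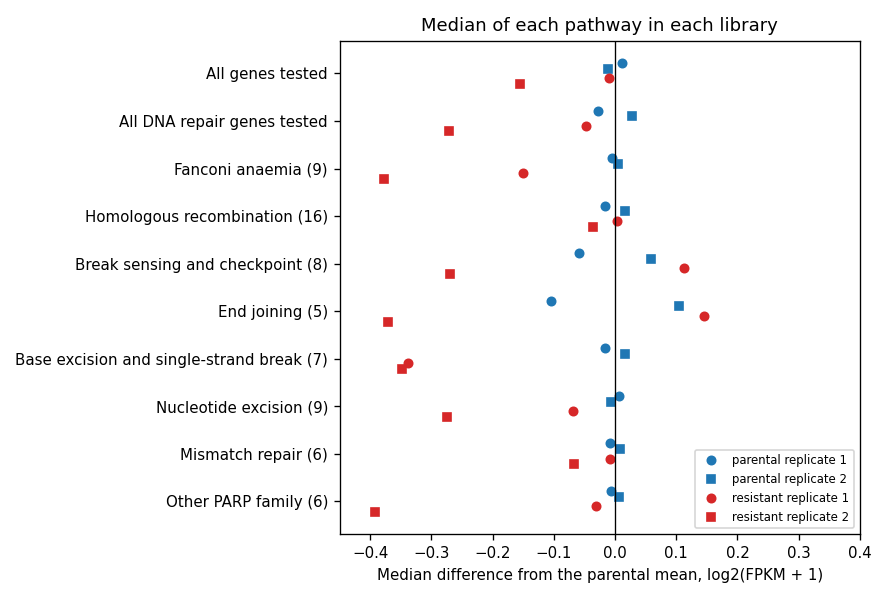
Median difference from the parental mean on the log2(FPKM + 1) scale for all genes tested, all DNA repair genes tested and each pathway (number of genes in brackets), with 1 point per library. Base excision is low in both resistant libraries (-0.34 and -0.35), while in end joining and break sensing the resistant libraries fall on opposite sides of 0.

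Repair genes outside the rule were read from 8 lists of 110 partner genes. Of 106 tested, 0 passed over all genes (lowest limma adjusted p = 0.153), 2 were higher (1.89%) and 7 lower (6.6%) at an unadjusted p under 0.05, against 6.06% and 10.2% of all genes. Without overlap 23 were higher (21.7%) and 29 lower (27.4%), against 19.1% and 31.8% of all genes, so the partners were near or below the background. Among partners of base excision 13 of 17 lay below 0 (76.5%), with a median of -0.19. POLB, the gap-filling polymerase, stood at 16.5 and 17.1 against 11.2 and 9.95 FPKM (log2 fold change -0.63 ± 0.17 SE, limma adjusted p = 0.209). The flap nuclease FEN1 stood at 54.9 and 55.9 against 39.8 and 32.0 FPKM (-0.62, limma adjusted p = 0.214). NEIL3, a glycosylase named after its values were seen, was the third of this list at an unadjusted p under 0.05, at 5.56 and 5.88 against 3.79 and 3.07 FPKM.

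Among 24 break signalling partners, 16 lay below 0 (66.7%). MDC1, the adaptor that binds marked chromatin at breaks, stood at 25.7 and 25.5 FPKM in parental and 14.9 and 12.4 FPKM in resistant libraries, with no overlap (log2 fold change -0.87, limma adjusted p = 0.153). The fork protection factor TIMELESS stood at 15.4 and 14.5 against 10.6 and 7.56 FPKM, and UIMC1, a ubiquitin reader at breaks named after its values were seen, at 6.28 and 5.66 against 3.90 and 3.69 FPKM. These 3 were lower in both resistant libraries.

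The other partner lists had fewer such genes. GTF2H5, a small subunit of the excision helicase complex, was higher in resistant libraries (3.54 and 4.16 against 6.29 and 7.98 FPKM, log2 fold change 0.74), while GTF2H4 of the same complex was lower (11.4 and 8.18 against 6.82 and 5.59 FPKM). In lesion bypass, the ubiquitin-conjugating enzyme UBE2A was higher (7.03 and 6.50 against 10.8 and 18.2 FPKM, 0.95) and the demethylase ALKBH2 lower (12.2 and 14.8 against 7.26 and 9.67 FPKM, -0.63). None passed over all genes (limma adjusted p = 0.213 for GTF2H5, 0.312 for GTF2H4, 0.22 for UBE2A and 0.276 for ALKBH2).

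The 12 Fanconi partners had a median of 0.04, with UBE2T, the conjugating enzyme of the pathway, at 88.0 and 87.4 against 75.3 and 54.9 FPKM, and FAAP20 at 2.66 and 2.65 against 3.32 and 4.47 FPKM. Both resistant libraries lay below the parental ones for UBE2T and above them for FAAP20, and neither gene passed over all genes. The 20 recombination partners had a median of -0.04, with GEN1, a junction resolvase, at 4.03 and 4.00 against 1.17 and 3.22 FPKM, and SWSAP1 at 1.55 and 1.30 against 1.88 and 2.16 FPKM. End joining partners had a median of -0.02 over 6 genes, with DCLRE1C, the Artemis nuclease, at 1.03 and 1.01 against 1.12 and 1.67 FPKM and the polymerase POLM with overlap. The mismatch repair partners PMS2 and PMS1 had log2 fold changes of -0.32 and -0.06.

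Replication and mitosis genes, with which many repair genes share their timing, had medians below that of all genes, and none passed. Of 25 replication and S phase genes, 0 passed over all genes, 4 lay above and 21 below 0 (84% against 58.6% of all genes) and the median was -0.18, with medians against the parental mean of -0.15 in resistant replicate 1 and -0.45 in resistant replicate 2. Of 15 mitosis genes, 0 passed, and 4 lay above and 11 below 0 (73.3%, median -0.22). At an unadjusted limma p under 0.05, 4 replication genes were lower (16%), and 1 mitosis gene was higher (6.67%) and 3 were lower (20%). Of all genes, 6.06% were higher and 10.2% lower at that threshold. MKI67, the proliferation marker and named after its values were seen, was higher in both resistant libraries instead, at 3.29 and 6.92 against 9.09 and 11.1 FPKM. The replication and mitosis medians lay below 0 alongside those of the Fanconi and base excision genes, and their part in them was not tested. Of 5 epithelial markers, 3 had a value, all keratins, with a summed level of 3.12 and 3.91 FPKM in parental and 9.39 and 17.7 FPKM in resistant libraries, while EPCAM and CDH1 had no value. CD68 was the 1 leukocyte marker of 5 with a value (21.0 and 15.7 against 7.24 and 4.97 FPKM), and none of 4 endothelial markers had one. Of 6 fibroblast markers 3 had a value, with a sum of 5.20 and 6.01 against 9.59 and 7.34 FPKM. The part of other cells in the repair gene values was not tested.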

How the data were processed

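RNA of 2 parental and 2 resistant 92.1 libraries was sequenced. Per the labels' protocols the kit marks strand with dUTP, and either poly(A) selection or rRNA removal was used. The authors deposited FPKM, per the file headers, and the build was hg38 per the submitters' processing notes. Aligner, quantifier, annotation and strand setting were not given in the sources used here. No gene had both group means below 0.5009 FPKM, as if a minimum had been applied before deposit. Read depth is unknown.

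Identifiers without version or suffix were matched to current symbols (11575 of 11650) and to GENCODE release 29 (11596), which gave positions and overlaps. Of the 78 repair genes, 35 overlap exons of another protein-coding gene, and 11 do so on the same strand. Release 29 also holds pseudogenes named after CHEK2, FANCD2, MRE11, PARP4, RAD17 and UNG. Genes averaging 1 FPKM or more were compared as log2(FPKM + 1) in limma 3.58.1 (R 4.3.3; two-sided, variance trend) with Benjamini-Hochberg adjustment over all 10271 genes at 0.05. The fold change on this scale understates that of low genes, and the filter can pass a gene through 1 group alone. With 2 libraries a group, the smallest p of an exact permutation test is 0.333. The fit was tested on simulated data. Tables were made in Python 3.11.15.

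The repair genes, pathway groups and lists were chosen with earlier results of these data known. In each pathway the 4 tested genes of lowest unadjusted p and the 1 of highest mean are given with values, as are the 2 partners of lowest p in each list. Alternatives covered the pseudocount, the filter, 2 scalings, the variance trend, the replicate number as a block and each library left out. A few genes enter the counts and medians and are not reported here by name.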

Additional observations from a re-analysis of the deposited data

How the results depend on the processing

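With every alternative 0 repair genes passed the adjusted threshold (lowest limma adjusted p = 0.0571, without resistant replicate 1). With 1 library left out, the lone library of its group is assumed to vary like the other group. The count of all genes called, 6, ran from 0 to 29 with 1 library left out. Repair genes at an unadjusted limma p under 0.05 ran from 1 to 7 (higher) and 0 to 19 (lower) with 1 library left out, and 0 were higher at a minimum mean of 5 FPKM, where fewer genes were tested. Repair genes without overlap between groups numbered 9 to 23 (higher) and 32 to 48 (lower) with 1 library left out. There 25.8% to 38.5% of all genes were higher and 38.6% to 55.9% lower. With no filter 8 repair genes were higher (10.3%, against 20.1% of all genes). At the minimum of 5 FPKM, 1 of 36 tested was higher (2.78%, against 18.3% of all genes) and 17 were lower (47.2%, against 34.3%). With median-of-ratios scaling 10 repair genes were higher (13.9%, against 25.3% of all genes).

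With 1 library left out, pathway medians ran from -0.38 to -0.10 for Fanconi genes, -0.06 to 0.00 for recombination, -0.27 to 0.11 for break sensing, -0.37 to 0.14 for end joining, -0.35 to -0.25 for base excision, -0.28 to -0.07 for nucleotide excision, -0.07 to -0.01 for mismatch repair and -0.39 to -0.03 for other PARP genes. Recombination stood at -0.11 with a pseudocount of 0.1 and after rescaling to a common sum, -0.16 at the minimum of 5 FPKM and 0.00 with median-of-ratios scaling. Base excision stood at -0.33 with no filter, -0.43 after rescaling and -0.27 with median-of-ratios scaling. At the minimum of 5 FPKM nucleotide excision stood at -0.46 and mismatch repair at -0.40, and mismatch repair stood at -0.06 after rescaling and 0.07 with median-of-ratios scaling. The cause was not tested.

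Of 53 named genes, 44 kept their sign in each of the 11 alternatives in which they were tested. Genes with means below the raised minimum, BRCA2 and BARD1 among them, were not tested in that alternative. The log2 fold change turned for LIG4 (-0.37 to 0.67 with 1 library left out, below 0 without parental replicate 1 or resistant replicate 1), MRE11 (-0.57 to 0.13), MSH3 (0.00 to 0.18), PARP4 (-0.41 to 0.30, and 0.04 with median-of-ratios scaling), PARP9 (-0.37 to 0.02) and RAD51AP1 (-1.09 to 0.85). It also turned for POLQ (-0.49 to 0.36, and 0.00 with median-of-ratios scaling), PMS1 (-0.36 to 0.25, and 0.02) and POLM (-0.37 to 0.09). The sign turned without resistant replicate 1 for LIG4, RAD51AP1 and POLM and without resistant replicate 2 for MRE11, PARP4, PARP9, POLQ and PMS1.

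The titles number the replicates 1 and 2 in both groups, but nothing says that equal numbers share a culture or day, and the deviations of same-numbered libraries correlated at -0.07 across genes. With the replicate number as a block, 5 genes in all and 0 repair genes passed, and 1 repair gene was higher and 3 lower at an unadjusted p under 0.05. With 2 libraries a group and unknown depth, differences of the size seen for most repair genes could not be told from the spread between libraries.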
